A study of Mus musculus with 45 samples.

Results

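The messenger RNAs described here belong to 32 mouse genes that copy DNA or control entry into the phase of DNA synthesis, out of 35272 genes with reads in the series. They were taken by name from a list drawn up with earlier results of these data known, and all 32 were found and passed the filter on low counts in every comparison. By role they comprise 8 genes that license replication origins, 4 that fire them, 7 of DNA synthesis, 4 of nucleotide supply, 5 of G1/S control and 4 of chromatin and histone supply. The samples were cultured forelimb buds of gestation day 13 CD1 mouse embryos, with limbs of both sexes kept together per the labels. Buds spent 3, 24 or 48 h in medium with the solvent DMSO (control), with 1 µM or with 5 µM BPAF, or bisphenol AF, which is bisphenol A with fluorine atoms in its central part. Each of the 9 groups had 5 libraries, 45 in all, and the study asked how BPAF changes transcripts while cartilage turns to bone. Limbs were pooled in culture bottles before RNA was taken. The labels do not state that replicates were separate cultures, so p-values measure the spread between these libraries, which may be technical.

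Before a cell copies its DNA, the proteins CDC6 and CDT1 load the MCM2-7 helicase onto origins during G1. In S phase the helicase is switched on with the help of MCM10 and the GINS complex, and polymerases, the sliding clamp PCNA and its loader RFC follow. Many of these genes are switched on by E2F transcription factors when kinases bound by cyclins, cyclin E among them, release these factors from the retinoblastoma protein. In the growing limb, mesenchyme and young cartilage divide, and cells leave the cycle as cartilage, bone and muscle mature.

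Depth ranged from 14901842 to 25154115 counted reads per library (median 17820524). The tissue label was checked on 12 limb mesenchyme markers, all with reads in every group, with a summed level of 2094 to 2268 CPM (counts scaled to a common library size) in control libraries at 3 h. Mitochondrial transcripts made up 1.49% to 1.96% of reads. Haemoglobin transcripts made up 0.199% to 0.31% of reads in control libraries at 3 h and 0.0524% to 0.0848% at 48 h. One characteristic of 1 µM 3 h replicate 5 names 10 uM BPA where its title names 1 µM BPAF, and the library was kept by its title. For 1 µM 48 h, replicates 1 and 2 by title are 2 and 1 by library code. The treatment text also spells the compound out as bisphenol A.

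A few libraries stood apart. Control 3 h replicate 3, 1 µM 3 h replicate 1 and 1 µM 48 h replicate 2 held almost no reads of Y-linked genes, at 0.144, 0.559 and 0.211 on the log2 CPM scale against 5.76 to 8.33 in the other 42, unlike the mixed sexes of the labels. Without control 3 h replicate 3 31 genes were called lower in control from 3 to 24 h and 29 from 3 to 48 h, and the Ccne1 calls it changes are given beside them. Without 1 µM 3 h replicate 1 the 32 genes had 0 calls against control at 3 h, as with it. Without 1 µM 48 h replicate 2, 3 genes were called lower in 5 against 1 µM at 48 h, with Rrm1 (adjusted p = 0.0844) and Tk1 (0.11) lost and E2f8 (0.0491) gained (edgeR). In the 5 µM 24 h group, replicate 5 differed from its fellows by a chi-square per gene of 19.2 to 31.6, where the other pairs of that group gave 6.2 to 10.3. Results at 24 h that change without it are given with both values.

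Promoter windows of some of these genes are shown because E2F factors are known regulators of the set. RefSeq promoter windows (build GRCm38.p6, 250 bases before to 50 after RefSeq's start) were found for 27 of the 32 genes, with 31 windows in all. They were searched on both strands for 4 E2F words, TTTGGCGC, TTTGCCGC, TTTCGCGC and TTTCCCGC, whose matches may overlap. A word was present in 11 of the 31 windows (35.5%), against 2.26% of the 32851 windows of all genes in that table. The 11 genes were Mcm3, Mcm5, Mcm6, Mcm7, Cdc6, Cdt1, Gins3, Rfc3, Pola1, E2f2 and Uhrf1. The pentamer CCAAT was present in 67.7% of the 31 windows and in 37.4% of all. Such a match is a description of letters and not a measured site. The windows of 3 helicase subunits, of E2f2 and of Ccne1 follow, 5′ to 3′ on the gene's strand, with E2F words in capitals. The first 4 carry words, though a further RefSeq window of E2f2, not printed, has none. That of Ccne1 has no exact match to these words, as is so for most of the 31 windows, such as those of Mcm10 and Rrm2. Near matches were not searched. The window of E2f1, which has no match either, lies wholly inside the deposited gene, as do some further windows.
Mcm3 (chr1:20820263-20820562, - strand): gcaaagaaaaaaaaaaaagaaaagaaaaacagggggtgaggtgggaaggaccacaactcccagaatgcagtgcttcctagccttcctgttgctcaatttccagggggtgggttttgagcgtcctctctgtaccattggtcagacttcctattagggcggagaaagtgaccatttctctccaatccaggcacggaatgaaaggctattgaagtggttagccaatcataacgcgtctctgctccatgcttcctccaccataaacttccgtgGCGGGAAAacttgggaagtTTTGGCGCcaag
Mcm5 (chr8:75109259-75109558, + strand): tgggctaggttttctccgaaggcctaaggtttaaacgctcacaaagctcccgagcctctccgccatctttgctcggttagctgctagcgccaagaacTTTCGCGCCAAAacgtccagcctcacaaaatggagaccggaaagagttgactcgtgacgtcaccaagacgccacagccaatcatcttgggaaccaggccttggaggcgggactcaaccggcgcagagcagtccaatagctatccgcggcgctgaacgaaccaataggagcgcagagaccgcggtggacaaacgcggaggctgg
Mcm6 (chr1:128359656-128359955, - strand): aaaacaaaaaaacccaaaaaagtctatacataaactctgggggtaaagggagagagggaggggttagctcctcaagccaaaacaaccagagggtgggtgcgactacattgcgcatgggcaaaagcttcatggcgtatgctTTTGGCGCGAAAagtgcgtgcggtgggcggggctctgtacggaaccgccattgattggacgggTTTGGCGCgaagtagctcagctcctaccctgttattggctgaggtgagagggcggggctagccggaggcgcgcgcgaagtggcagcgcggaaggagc
E2f2 (chr4:136172024-136172323, + strand): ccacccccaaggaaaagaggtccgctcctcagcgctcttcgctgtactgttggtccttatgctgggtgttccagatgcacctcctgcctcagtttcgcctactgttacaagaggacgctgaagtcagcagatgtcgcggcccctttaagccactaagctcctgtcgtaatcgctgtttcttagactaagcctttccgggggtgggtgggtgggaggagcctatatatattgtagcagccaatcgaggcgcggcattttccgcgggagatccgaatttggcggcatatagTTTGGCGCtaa
Ccne1 (chr7:38107441-38107740, - strand): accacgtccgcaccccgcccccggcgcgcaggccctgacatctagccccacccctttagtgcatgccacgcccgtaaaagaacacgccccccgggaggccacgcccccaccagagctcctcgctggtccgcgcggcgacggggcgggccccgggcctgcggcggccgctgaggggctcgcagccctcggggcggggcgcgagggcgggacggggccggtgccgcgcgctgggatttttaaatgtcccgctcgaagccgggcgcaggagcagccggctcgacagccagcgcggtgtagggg
In Mcm5 and Mcm6 a pair of words on opposite strands overlaps, starting at positions -153 and -149 in Mcm5 and -110 and -106 in Mcm6, counted from RefSeq's start. The word of E2f2 lies after that start, at position 40, as do both words of Mcm3, at positions 20 and 39.

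Levels between genes were compared as CPM per kilobase of the deposited gene length. In control limbs at 3 h Pcna, the sliding clamp, had the highest level of the 32 at 59.7 CPM per kilobase. The helicase subunits Mcm3, Mcm4, Mcm5, Mcm6 and Mcm7 lay between 43.4 and 50.3 CPM per kilobase, and Mcm2 lay lower at 21.9. The loader Cdt1 reached 20.7 CPM per kilobase and its partner Cdc6 6.01. Fen1, the flap nuclease of lagging-strand synthesis, was lowest at 2.57 CPM per kilobase. The level of Fen1 and of 2 further genes is uncertain, because 84.2% of its exonic bases, 67.3% of those of Gins2 and 52.5% of those of Chaf1a lie under exons of other genes (GENCODE M21), and no source used here gives a strand setting. Smaller overlaps were found for Ccne2 (17.4%), Rfc4 (12.7%), Mcm7 (12.6%), E2f8 (11.2%), Slbp (7.8%), Tk1 (1.6%) and Pole (0.699%).

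In control limbs nearly the whole set fell during the first day of culture. Between 3 and 24 h 31 of 32 genes were called lower (adjusted p under 0.05, edgeR's quasi-likelihood test with Benjamini-Hochberg adjustment over all genes tested), where 18.7% of all genes tested were called lower. Their median log2 change was -0.59, beside -0.01 for all genes tested. In 29 of the 32 genes every 24 h library lay below every 3 h library, which held for 11.3% of all genes, the others being Ccne1, E2f1 and Mcm6. In bulk tissue, fewer cycling cells and less of these RNAs per cell cannot be told apart.

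All 8 licensing genes fell, with a median log2 change of -0.58. Mcm5, a helicase subunit, read 187, 189, 180, 191 and 189 CPM at 3 h and 103, 114, 101, 110 and 103 CPM at 24 h. The 3 h values were tight and the groups lay far apart, with a log2 change of -0.82 ± 0.05 (SE, adjusted p = 9.64e-10, edgeR). Mcm6, from the same ring, fell least of the subunits: it read 221, 222, 206, 232 and 189 CPM at 3 h and 159, 169, 165, 189 and 170 CPM at 24 h. The lowest 3 h library equalled the highest 24 h library at the printed precision, and the log2 change was -0.33 ± 0.06 (adjusted p = 0.000426, edgeR). The other subunits lay between these, with Mcm2 at -0.42, Mcm3 at -0.57, Mcm4 at -0.61 and Mcm7 at -0.48 on the log2 scale. The loaders Cdc6 (-0.60) and Cdt1 (-0.71) fell as well.

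The 4 firing genes fell by a median of 0.71 on the log2 scale. Mcm10, which helps to switch the loaded helicase on, showed the largest change of the set. It read 37.8, 42.9, 37, 37.9 and 39.6 CPM at 3 h and 18.4, 18.1, 19.3, 17.2 and 23 CPM at 24 h. Its highest 24 h library lay far under the lowest 3 h library, and the log2 change was -1.03 ± 0.08 (adjusted p = 2.83e-08, edgeR). The GINS subunits changed by -0.80 (Gins1), -0.59 (Gins2) and -0.62 (Gins3).

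The 7 DNA synthesis genes all fell, by 0.46 (Rfc3, a clamp loader subunit) to 0.75 (Fen1, whose level is uncertain) on the log2 scale. Pcna read 153, 140, 145, 145 and 133 CPM at 3 h and 101, 103, 93.9, 103 and 100 CPM at 24 h. The 24 h values were nearly alike and all below the 3 h values, a log2 change of -0.52 ± 0.05 (adjusted p = 4.4e-07, edgeR). The polymerase genes fell somewhat more, with Pola1 (the catalytic subunit of polymerase alpha) at -0.64 and Pole (that of polymerase epsilon) at -0.67, and the primase gene Prim1 stood at -0.54.

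All 4 genes of nucleotide supply fell. Rrm2, the regulated subunit of ribonucleotide reductase, changed by -0.81 ± 0.05 and its partner Rrm1 by -0.70 ± 0.06. The thymidylate genes Tyms (thymidylate synthase) and Tk1 (thymidine kinase) changed by -0.59 ± 0.06 and -0.63 ± 0.07. The largest of the 4 adjusted p-values was 1.33e-06, for Tk1 (edgeR).

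The 4 chromatin and histone genes fell by a median of 0.65 on the log2 scale. Uhrf1, which reads newly copied, half-methylated DNA, went from 196, 179, 177, 187 and 192 CPM at 3 h to 104, 102, 103, 104 and 105 CPM at 24 h. The 24 h libraries differed among themselves by only a few CPM, and the log2 change was -0.85 ± 0.05 (adjusted p = 4e-10, edgeR). The histone chaperone subunits Chaf1a and Chaf1b changed by -0.75 and -0.47, and Slbp, which binds histone mRNAs, by -0.55.

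The 5 G1/S control genes had a median log2 change of -0.33, and 4 of them were called lower. Ccne1, one of the 2 cyclin E genes, read 34.4, 34.8, 32.1, 35.6 and 27.3 CPM at 3 h and 37.2, 40, 34.5, 36.3 and 38.5 CPM at 24 h. The ranges overlapped, and its log2 change of 0.18 ± 0.08 did not pass (adjusted p = 0.0709, edgeR). The other cyclin E gene, Ccne2, went from 21.8, 24.3, 25.8, 21.1 and 22.2 CPM to 19.3, 19.8, 17.9, 17.4 and 16 CPM, a log2 change of -0.35 ± 0.09 (adjusted p = 0.00342, edgeR). That call did not pass with a covariate for Y-linked reads, which track the share of male limbs (adjusted p = 0.0559). The activator E2f1 read 36.3, 36.9, 36.3, 39.3 and 34.6 CPM at 3 h and 31.9, 33.3, 31.3, 29.5 and 35.1 CPM at 24 h. The ranges overlapped, the log2 change was -0.19 ± 0.07 (adjusted p = 0.0295, edgeR), and the call was lost without any 1 of 5 libraries, control 3 h replicates 2 and 4 and control 24 h replicates 1, 3 and 4 (adjusted p up to 0.0655). It was also lost without the low-count filter (adjusted p = 0.0605), with the replicate number as a block (0.0664) and with the Y-linked covariate (0.0701). The activator E2f2 (-0.33) and the repressor E2f8 (-0.59) fell.

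**Figure D1:**
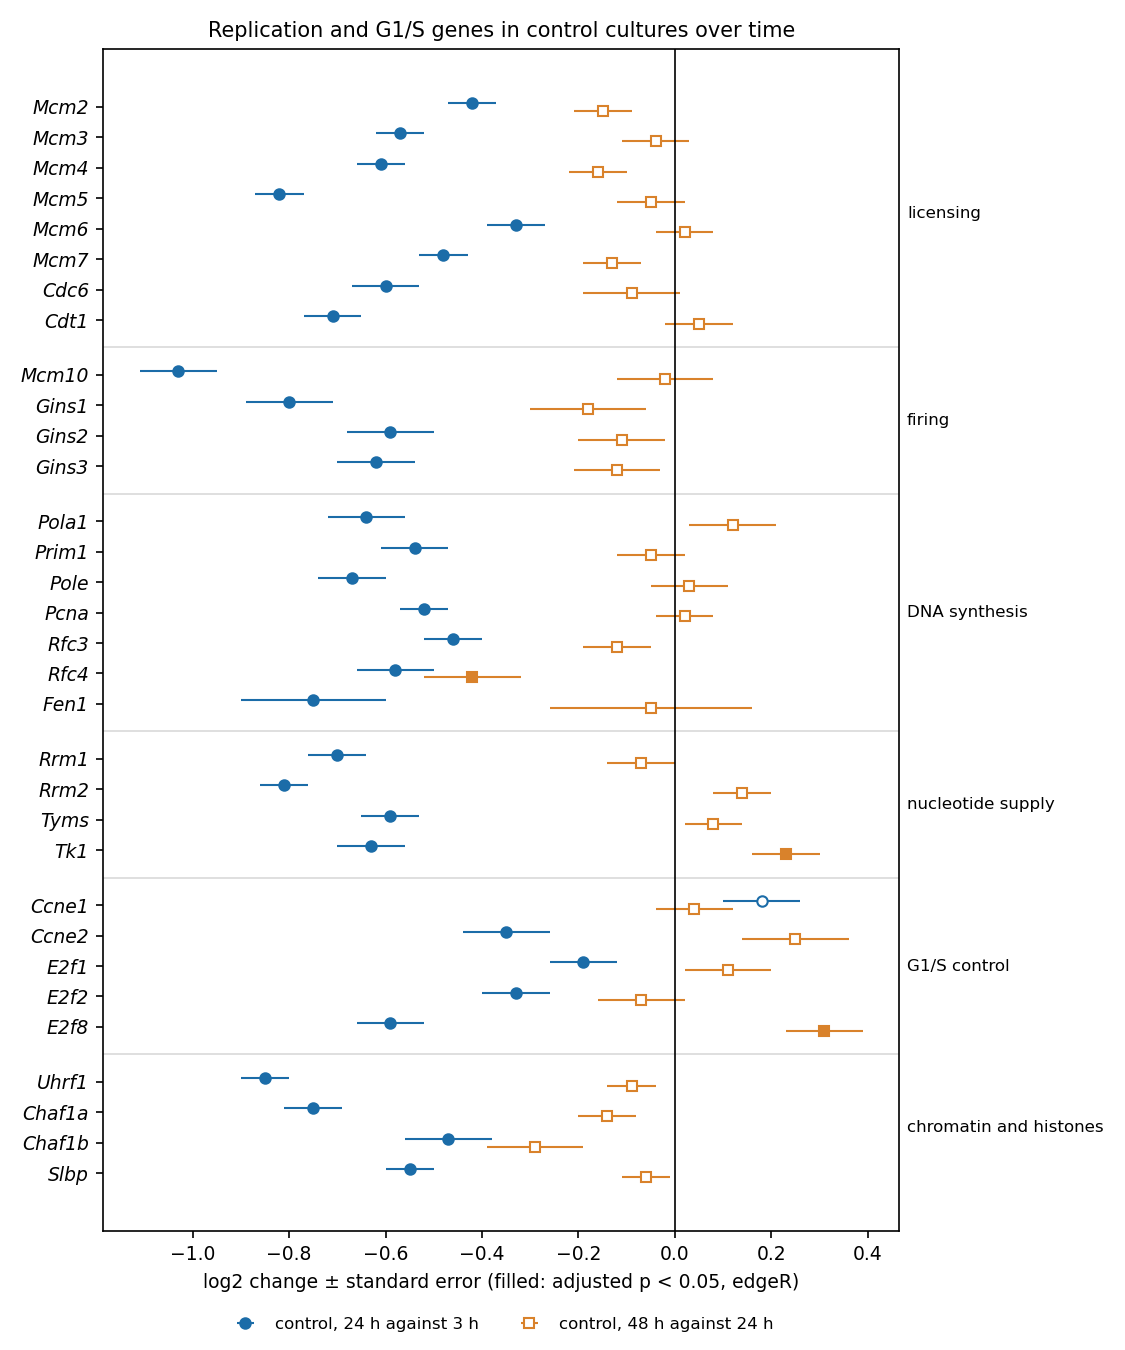
Log2 change of each of the 32 genes in control cultures (horizontal axis, point with standard error) by role, 24 h against 3 h (circles) and 48 h against 24 h (squares), 5 libraries a group; filled points passed the test. Circles lie left of 0 for every gene but Ccne1, from -1.03 to 0.18, while squares lie from -0.42 (Rfc4) to 0.31 (E2f8).

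Other genes of the same pathways, from lists chosen with earlier results in view, moved alike in that first day. Of 18 other licensing and firing genes 14 were called lower and 0 higher, with Ticrr at -1.27, Recql4 at -1.05 and Cdc45 at -0.83 on the log2 scale. The counts were 21 of 24 for other fork genes (Pclaf at -1.02), 11 of 16 for nucleotide supply and 9 of 11 for replication chromatin (Dnmt1 at -0.58), with 0 higher in each. Of 21 other G1/S control genes 8 were lower (Ccna2 at -0.89) and 5 higher (Ccnd3 at 0.62, Ccnd1 at 0.27). Of all 16481 genes tested 3147 were called higher, so 5 of 21 is near the background. All 26 mitotic G2/M genes fell, by a median of 1.25 on the log2 scale, with Top2a and Mki67 both at -1.24. Among 6 CDK inhibitor genes tested, Cdkn1a (0.91) and Cdkn1c (0.51) rose, and Cdkn1b (-0.22), Cdkn2c (-0.42) and Cdkn2d (-0.40) fell.

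Cell-type markers moved in the same interval, and their part in the fall was not tested. Of 17 chondrocyte markers 16 were called higher at 24 h than at 3 h, with a summed level of 5527 to 6015 CPM at 3 h and 12500 to 14970 CPM at 24 h. Of 17 skeletal muscle markers tested 15 were higher (1448 to 1894 CPM against 4160 to 4712 CPM), and of 12 limb mesenchyme markers 8 were lower (2094 to 2268 CPM against 1632 to 1738 CPM). Endothelial (12 of 12) and erythroid (9 of 11) markers were lower, and osteoblast (9 of 9 tested) and macrophage (9 of 12) markers higher. Of 12 epidermis markers 8 were lower and 3 higher. Their summed level varied widely between libraries, at 506.2 to 810.5 CPM at 3 h and 120.9 to 700 CPM at 24 h. No marker of these lists was at 0 in any group.

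On the second day few of the genes changed. Between 24 and 48 h 2 genes were called higher, where 9.71% of all genes tested were, and 1 lower, where 6.57% were, so these shares are near the background. The median log2 change of the 32 was -0.05. The repressor E2f8 read 23.2, 22.6, 22, 21.2 and 24 CPM at 24 h and 28.7, 32, 25.8, 27.8 and 26.2 CPM at 48 h. All 48 h libraries lay above all 24 h libraries, a log2 change of 0.31 ± 0.08 (adjusted p = 0.0114, edgeR), which became 0.0629 with the Y-linked covariate. Tk1 rose by 0.23 ± 0.07 (adjusted p = 0.0376, edgeR), a call lost in 7 of 10 fits without 1 library (control 24 h replicates 1, 2, 3 and 4 and control 48 h replicates 2, 3 and 5), with adjusted p up to 0.101. Its call was also lost without the low-count filter (adjusted p = 0.0663, edgeR) and with the Y-linked covariate (0.119). The clamp loader gene Rfc4 went from 20.5, 19.5, 19.5, 20.7 and 25.8 CPM to 15, 15.5, 15.1, 14.7 and 19.1 CPM, with replicate 5 highest at both times. The groups did not overlap and the log2 change was -0.42 ± 0.10 (adjusted p = 0.00986, edgeR). Of the 26 G2/M genes 1 was higher and 0 lower.

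Over the whole 48 h, 29 of 32 genes were called lower (25.4% of all genes tested were) and 1 higher (25.6%). Mcm10 was again lowest, at -1.03 ± 0.09, followed by Rfc4 at -0.98 ± 0.09 and Gins1 at -0.97 ± 0.11 on the log2 scale. Ccne1 was the gene called higher, at 0.24 ± 0.09 (adjusted p = 0.0325, edgeR), and 5 of 10 fits without 1 library (control 3 h replicates 3 and 5, control 48 h replicates 2, 3 and 5) lost that call, with adjusted p up to 0.104. Ccne2 at -0.09 ± 0.11 and E2f1 at -0.06 ± 0.08 were not called. Cdkn1a, the p53-induced CDK inhibitor p21, stood at 186, 237, 293, 186 and 247 CPM at 48 h, against 59, 54.7, 67.3, 66.1 and 52.7 CPM at 3 h.

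**Figure D2:**
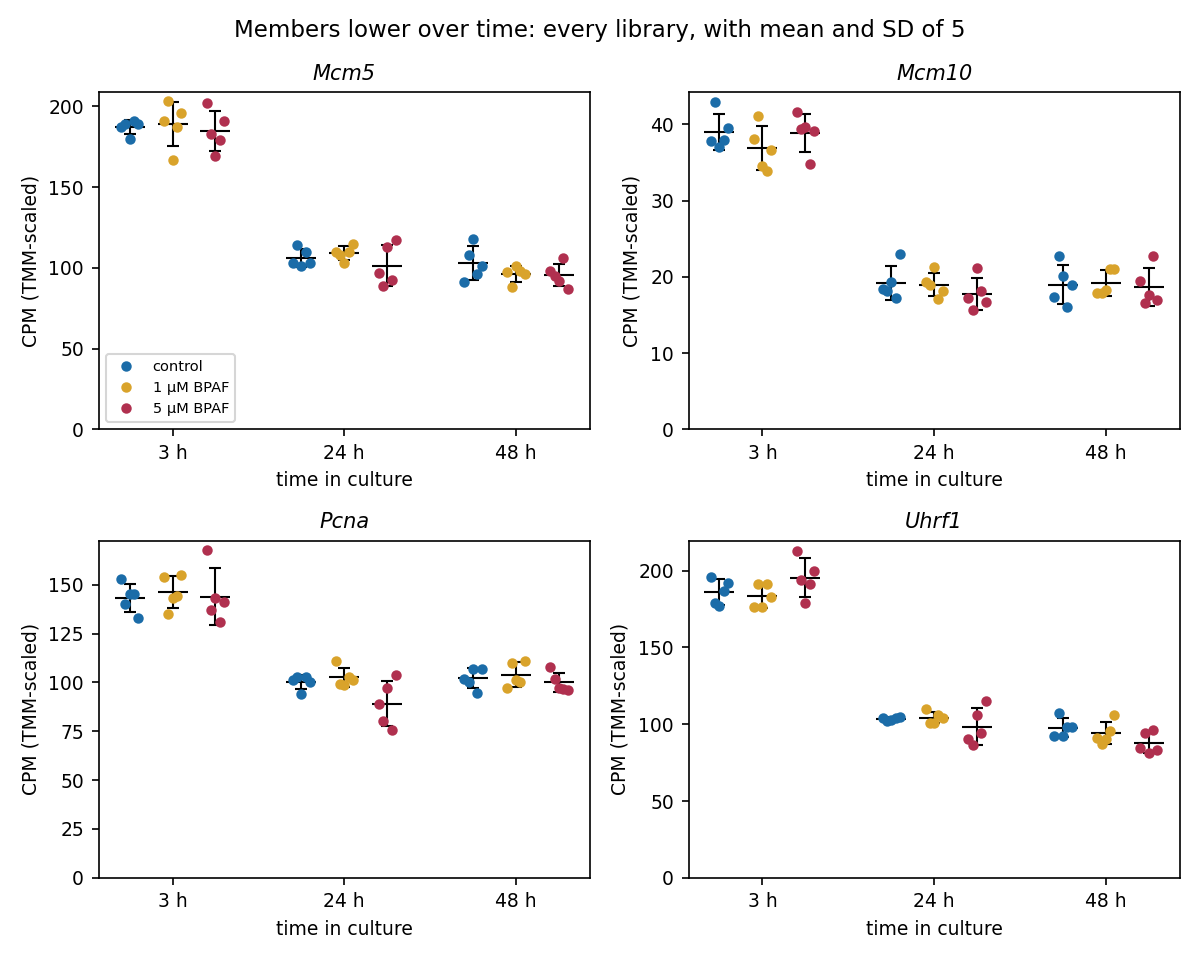
CPM (vertical axis, from 0) of Mcm5, Mcm10, Pcna and Uhrf1 in every library (points) with mean and SD of 5 (bars), by time and treatment. Each gene is lower at 24 and 48 h than at 3 h under all 3 treatments, and the treatments overlap at each time.

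Against control, no helicase, polymerase, clamp or chromatin gene of the set passed the test at either dose of BPAF, and the genes that did pass were Ccne1, E2f2, E2f8 and Tk1, all lower at 5 µM. At 3 h, 5 µM BPAF against control gave 0 calls among the 32 genes by edgeR, DESeq2 and limma-voom, with 0.18% of all genes tested called by edgeR. At an unadjusted p under 0.05 there was 1 gene, Pole (0.15 ± 0.05 on the log2 scale). By sign, 28 of 32 genes lay lower at 24 h, where 8123 of 16433 genes tested did. Their median log2 change was -0.11, beside 0.002 for all genes tested, and this shift of the set was not tested. Of the 32, 1 gene was called lower at 24 h, where 1.1% of all genes tested were.

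That gene was Ccne1. At 24 h it read 37.2, 40, 34.5, 36.3 and 38.5 CPM in control and 29.7, 25.1, 28.3, 27 and 33 CPM under 5 µM BPAF. Every treated library lay below every control library, and the log2 change was -0.38 ± 0.08 (adjusted p = 0.0318, edgeR). The call was lost in 9 of 10 fits without 1 library, at adjusted p up to 0.0994, and it held without 5 µM 24 h replicate 5 (0.00529). The log2 change in those fits stayed between -0.44 and -0.34. The origin loader Cdc6 was the other gene without overlap at 24 h (1.86% of all genes lay wholly lower), at 20.4, 22.5, 20.3, 20.4 and 20.2 CPM in control and 19, 16.4, 19.9, 15.5 and 17.3 CPM under 5 µM. Its log2 change of -0.24 ± 0.09 did not pass (adjusted p = 0.268, edgeR).

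At 48 h 4 of 32 genes were called lower under 5 µM BPAF and 0 higher, where 4.42% of all genes tested were called lower. They were 3 of the 5 G1/S control genes and 1 of the 4 nucleotide genes. Ccne1 read 34.5, 43.8, 40.8, 33.8 and 40.3 CPM in control and 29, 29.4, 34.7, 28.9 and 27.7 CPM under 5 µM. Only replicate 3 of the treated group reached into the control range, and the log2 change was -0.38 ± 0.09 (adjusted p = 0.012, edgeR), the same size as at 24 h. E2f2 read 16.7, 22.8, 19.8, 18.3 and 20.7 CPM in control and 14.9, 12.4, 15.8, 15.3 and 14 CPM under 5 µM. The groups did not overlap, and the log2 change was the largest of the set at -0.46 ± 0.10 (adjusted p = 0.0101, edgeR).

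Tk1, which salvages thymidine, read 42.7, 46.5, 46.7, 40.6 and 48 CPM in control at 48 h and 37.3, 37, 29.9, 32.9 and 32.6 CPM under 5 µM. All treated libraries were lower, with a log2 change of -0.42 ± 0.08 (adjusted p = 0.00257, edgeR). The repressor E2f8 read 28.7, 32, 25.8, 27.8 and 26.2 CPM in control and 25.8, 23.8, 20.5, 21.9 and 19.9 CPM under 5 µM. The groups did not overlap, though the highest treated and lowest control library are alike at the printed precision. At 48 h 656 of 18549 genes lay wholly lower under 5 µM, among them E2f2, Tk1 and E2f8. The log2 change was -0.34 ± 0.09 (adjusted p = 0.0309, edgeR), and 6 of 10 fits without 1 library lost the call, at adjusted p up to 0.104: those without control replicates 1, 2 or 4 or treated replicates 3, 4 or 5. Calls for Ccne1, E2f2 and Tk1 held in all 10 such fits.

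**Figure D3:**
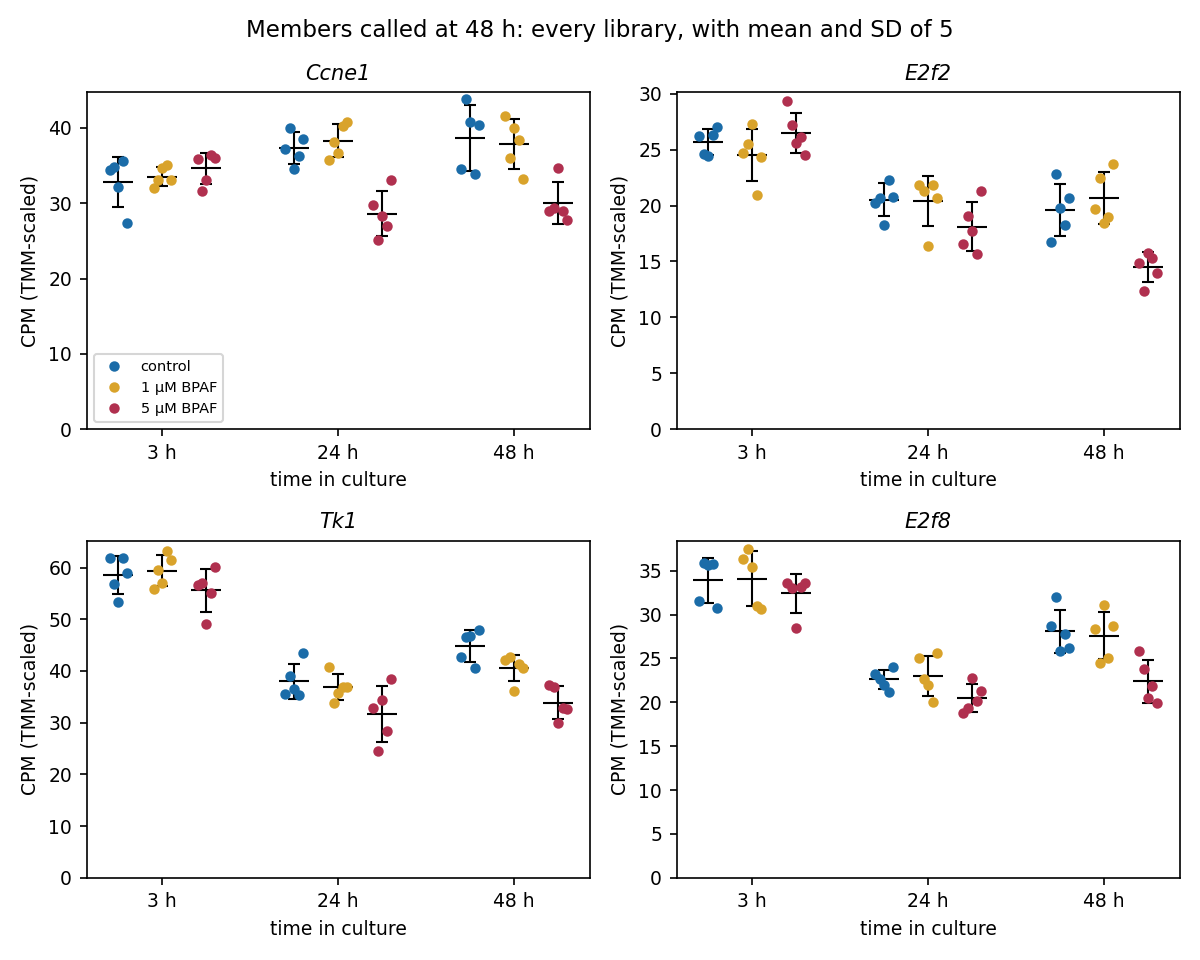
CPM (vertical axis, from 0) of Ccne1, E2f2, Tk1 and E2f8 in every library (points) with mean and SD of 5 (bars), by time and treatment. At 48 h the 5 µM libraries lie below control for E2f2 (12.4 to 15.8 against 16.7 to 22.8 CPM) and Tk1 (29.9 to 37.3 against 40.6 to 48 CPM), and narrowly for E2f8. The 1 µM libraries overlap control for each gene.

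The remaining 28 genes were not called at 48 h. Mcm5 read 91.1, 108, 118, 95.9 and 101 CPM in control and 98, 95.1, 91.8, 106 and 86.9 CPM under 5 µM, a log2 change of -0.12 ± 0.07. The 6 helicase subunits ranged from -0.12 (Mcm5) to 0.02 (Mcm6), and none had an adjusted p under 0.394 (edgeR). Gins3 had the highest value of the 32, at 0.30 ± 0.10 (adjusted p = 0.0986, edgeR). Ccne2 (-0.27 ± 0.12, adjusted p = 0.204) and Uhrf1 (-0.17 ± 0.07, adjusted p = 0.146) were lower without passing. The median log2 change of the 32 genes was -0.06, beside -0.002 for all genes tested.

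Related lists at 48 h are set beside all 16345 genes tested, of which 4.42% were called lower and 448 genes higher. Of 21 other G1/S control genes 1 was called lower, Skp2 (-0.23), and 1 higher, Ccnd2 (0.30). Skp2 is a ubiquitin ligase subunit that marks CDK inhibitors for destruction. The nuclease Dna2 (-0.35) was the 1 of 24 other fork genes called lower. The histone chaperone Asf1b (-0.37) was the 1 of 11 other replication chromatin genes called lower. None of 18 other licensing and firing genes, 16 other nucleotide genes or 26 G2/M genes was called. Of 6 CDK inhibitor genes Cdkn2b rose (1.12), Cdkn1c (-0.40) and Cdkn2c (-0.39) fell, and Cdkn1a, at 0.31 ± 0.13, was not called (adjusted p = 0.192, edgeR). Of 22 p53 target genes 15 were called higher and 0 lower.

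Markers of some other cell types moved with the 5 µM dose at 48 h, and their part in the 4 calls was not tested. Of 17 skeletal muscle markers tested 16 were called lower, with a summed level of 4811 to 7561 CPM in control and 2692 to 3256 CPM under 5 µM. Of 12 macrophage markers 7 were lower (274.1 to 360.4 CPM against 177.2 to 214.8 CPM), and of 12 endothelial markers 4 (332.3 to 381 CPM against 246 to 318.2 CPM). Fewer markers of the other lists were called at 48 h. Lower were 2 of 9 osteoblast markers tested, 2 of 12 epidermis markers, 1 of 9 erythroid markers tested and 1 of 17 chondrocyte markers. Higher were 2 of 12 limb mesenchyme markers. At 24 h, where Ccne1 was lower, 9 of 16 muscle markers, 3 of 12 macrophage markers and 2 of 12 endothelial markers were lower. No marker of these lists was at 0 in any group.

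**Figure D4:**
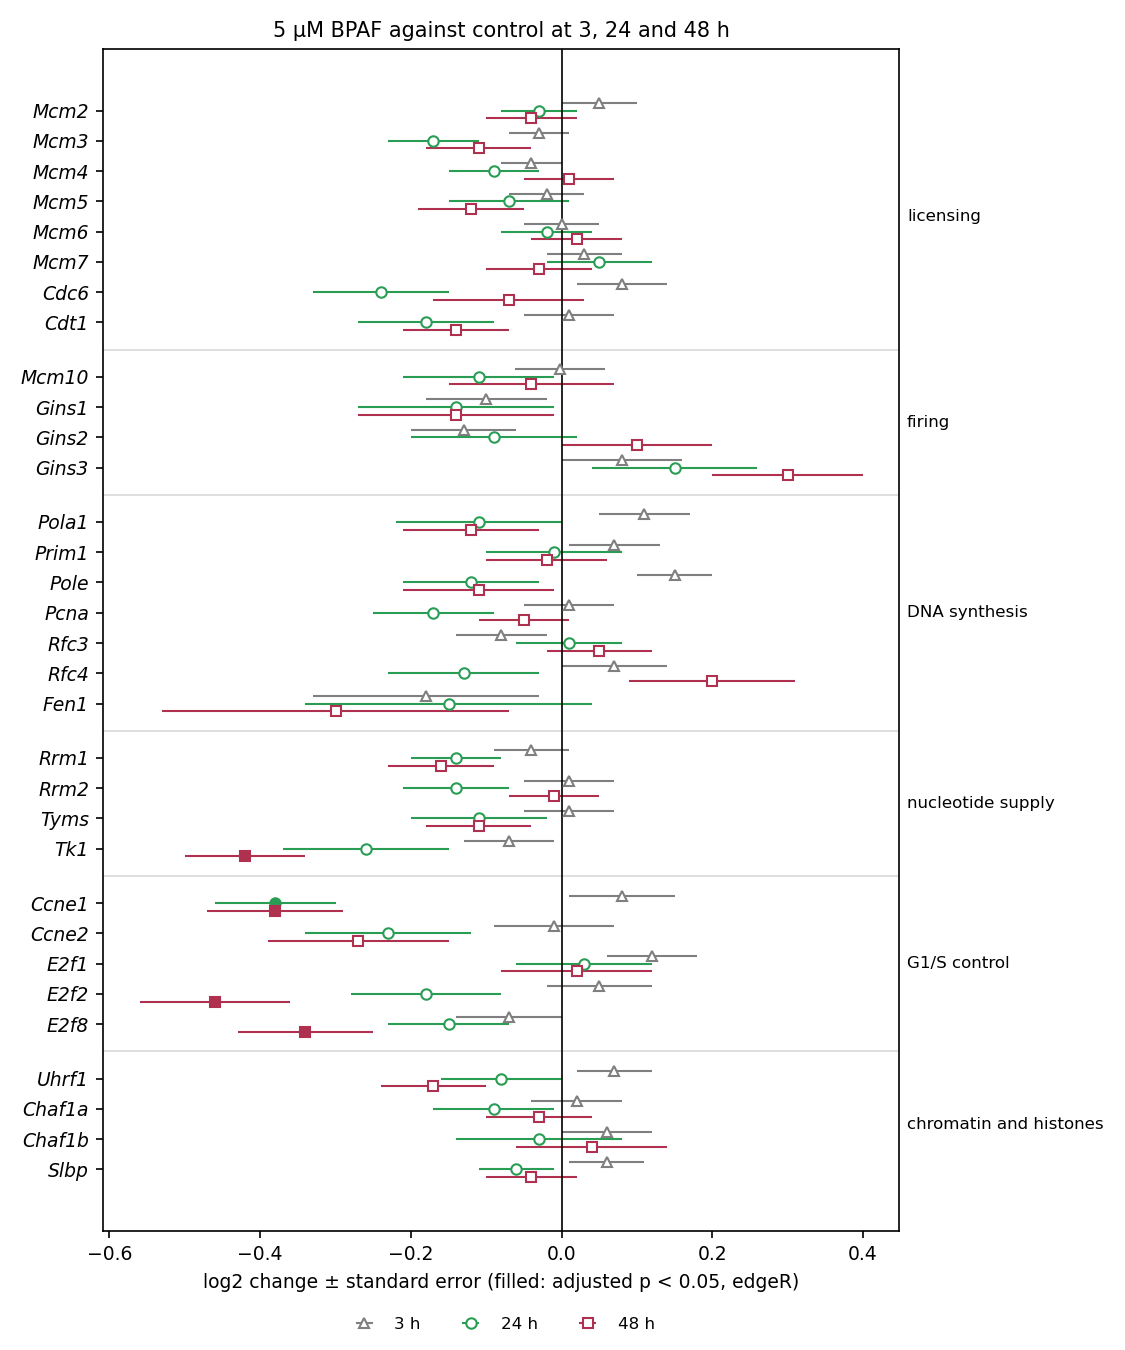
Log2 change of each of the 32 genes under 5 µM BPAF against control (horizontal axis, point with standard error) by role, at 3 h (triangles), 24 h (circles) and 48 h (squares), 5 libraries a group; filled points passed the test. Filled points are Ccne1 at 24 h and Ccne1, E2f2, Tk1 and E2f8 at 48 h, between -0.46 and -0.34, and the helicase subunits lie near 0.

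Whether the 5 µM effect changed with time was tested directly, as the difference between the effects at a pair of times. From 3 to 48 h it changed downward for 2 of 32 genes, where 2.04% of all genes tested did. E2f2 differed by -0.49 ± 0.12 (adjusted p = 0.0194, edgeR) and Ccne1 by -0.45 ± 0.12 (adjusted p = 0.0341, edgeR). The Ccne1 call was lost in 12 of 20 fits without 1 library, at adjusted p up to 0.0782, those without control 3 h replicates 3 or 5, 5 µM 3 h replicates 1, 4 or 5, control 48 h replicates 2, 3 or 5, or 5 µM 48 h replicates 1, 2, 4 or 5. Tk1 differed by -0.34 ± 0.10, which did not pass with edgeR (adjusted p = 0.0652) and passed with DESeq2 (0.0429).

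From 3 to 24 h 0 genes passed with edgeR (0.336% of all genes tested) and 3 were lower at an unadjusted p under 0.05: Ccne1 (-0.45), Cdc6 (-0.31) and Pole (-0.26). DESeq2 called 1 of them, Ccne1 (adjusted p = 0.0182). With edgeR its adjusted p was 0.0926, and 0.0166 once 5 µM 24 h replicate 5 was left out. From 24 to 48 h 0 passed with edgeR or DESeq2 (0.0693% of all genes tested by edgeR), and Rfc4 (0.34) was the 1 gene at an unadjusted p under 0.05.

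Limbs under 5 µM BPAF showed the first-day fall as well, and here Ccne1 was part of it. Between 3 and 24 h all 32 genes were called lower, where 17.4% of all genes tested were, with a median log2 change of -0.70. Ccne1 went from 35.8, 31.6, 33.1, 36.4 and 36 CPM to 29.7, 25.1, 28.3, 27 and 33 CPM, with 1 of the 24 h libraries reaching into the 3 h range. Its log2 change was -0.28 ± 0.08 (adjusted p = 0.0172, edgeR), against 0.18 in control. Mcm10 fell most again, at -1.14 ± 0.09, and E2f1 and Ccne1 least. Control and treated courses share no library, but the test of their difference for Ccne1 is the one given above, which did not pass with edgeR.

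Between 24 and 48 h under 5 µM, Rrm2 was the 1 gene called higher (8.38% of all genes tested were), at 0.28 ± 0.07 (adjusted p = 0.0151, edgeR). E2f2 was the 1 called lower (5.49%), at -0.33 ± 0.11 (adjusted p = 0.047, edgeR). Its level was 16.6, 19.1, 17.7, 15.7 and 21.3 CPM at 24 h and 14.9, 12.4, 15.8, 15.3 and 14 CPM at 48 h, so that the lowest 24 h library lay just under the highest 48 h library. The E2f2 call was lost in 9 of 10 fits without 1 library, at adjusted p up to 0.116, and held only without 5 µM 24 h replicate 4 (0.0324). Without 5 µM 24 h replicate 5, Pcna was called higher beside Rrm2 (adjusted p = 0.0416, 0.252 with it, edgeR). The E2f2 call was lost there (0.0853, 0.047 with it).

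At 1 µM BPAF 0 of 32 genes differed from control at any time by edgeR, DESeq2 or limma-voom. The share of all genes tested that edgeR called was 0% at 3 h, 0.00608% at 24 h and 0% at 48 h. At an unadjusted p under 0.05 there was 1 gene in all, Tk1 at 48 h, at -0.15 ± 0.07 on the log2 scale. Its libraries read 42.2, 42.7, 36.2, 41.3 and 40.5 CPM, overlapping both the control and the 5 µM ranges. Ccne1 at 48 h read 41.6, 36, 40, 38.4 and 33.2 CPM, a log2 change of -0.03 ± 0.09, and E2f2 19.7, 22.5, 18.4, 19 and 23.7 CPM, a change of 0.07 ± 0.10. The 1 µM effect did not differ between 3 and 48 h for any of the 32 genes, at adjusted or unadjusted p (0% of all genes tested).

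The doses were also compared directly. At 3 h 0 genes differed between 5 and 1 µM by edgeR, DESeq2 or limma-voom, and 0 at an unadjusted p under 0.05 (0.036% of all genes tested were called). At 24 h Ccne1 was lower at 5 µM by -0.42 ± 0.08 (adjusted p = 0.0142, edgeR), where 0.946% of all genes tested were lower. That call was lost without 1 µM 24 h replicates 2, 4 or 5 (adjusted p up to 0.0781). Without 5 µM 24 h replicate 5, Cdt1 (adjusted p = 0.00301, 0.106 with it, edgeR) and Pcna (0.0435, 0.35 with it) were called lower as well. At 48 h 4 genes were lower at 5 µM, where 3.77% of all genes tested were. E2f2 differed by -0.53 ± 0.10 (adjusted p = 0.0029, edgeR) and Ccne1 by -0.35 ± 0.08 (adjusted p = 0.013, edgeR), and both calls held without any 1 library. Tk1 differed by -0.27 ± 0.08 (adjusted p = 0.0446) and Rrm1 by -0.20 ± 0.06 (adjusted p = 0.0485), and these were lost in 7 and 9 of 10 fits without 1 library, at adjusted p up to 0.116 and 0.137. These dose comparisons share their 5 µM libraries with the comparisons against control.

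Summed over the 32 genes, which weights the abundant ones most, control limbs held 2752 ± 75.6, 1844 ± 40.1 and 1807 ± 83.4 CPM at 3, 24 and 48 h (SD, n = 5). Under 5 µM the sums were 2772 ± 113, 1741 ± 114 and 1735 ± 75.9 CPM. The ranges of control and 5 µM overlapped at each time, at 1791 to 1885 against 1629 to 1866 CPM at 24 h and 1688 to 1901 against 1682 to 1867 CPM at 48 h.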

How the data were processed

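Poly-A RNA of cultured limbs was sequenced in 45 libraries. The authors deposited 9 tables of 10 libraries, holding (per the file headers) raw counts of reads for each gene, beside a normalized signal (count over size factor), FPKM, log2 fold changes and p-values of the authors' own, which entered no test here. The submitters' processing notes name build mm10 and, among tools, STAR 2.5, HTSeq 0.6.1, CASAVA 1.8 and DESeq2; no role or strand setting is given in the sources used here. Counts were joined by gene identifier, and the 11.7% of gene and library pairs absent from a table were read as 0.

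Each comparison was fitted on its own libraries with edgeR 4.0.16 (R 4.3.3), TMM scaling, filterByExpr (minimum count 10, minimum total 15) and the two-sided quasi-likelihood test, with a threshold of 0.05 on p-values adjusted by Benjamini-Hochberg over all genes tested. Levels are TMM-scaled CPM over all 45 libraries. The code was tested on simulated data. Alternatives were DESeq2 1.42.0, limma-voom (limma 3.58.1), RLE scaling, no filter, a replicate block, a Y-linked covariate and left-out libraries. Every one of the 32 genes was eligible to be named, and other lists by counts with up to 4 called genes of smallest p, beside a few cell-cycle genes. The 32 genes and all lists were chosen with earlier results of these data known.

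For 1 µM against control at 24 h, same-numbered libraries deviated together in all 5 pairs (correlation of deviations 0.114 or more), so the numbers were taken to pair them there; the blocked fit also called 0 of the 32 genes.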

Additional observations from a re-analysis of the deposited data

Results flagged for a closer look

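In each group of 5 libraries, the level of each of the 32 genes was checked for a highest or lowest library far from the others, by its gap to the nearest library over the group's range. Of 288 gene and group combinations 15 stood out this way. Chance alone is expected to give about 1 in 20, and no library stood out in more than 2 of them.

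A highest library stood apart for Mcm3 in 1 µM 48 h replicate 3 (124 CPM), Cdc6 in control 24 h replicate 2 (22.5 CPM) and 1 µM 24 h replicate 4 (26.5 CPM), Cdt1 in 5 µM 24 h replicate 5 (43 CPM) and Rfc3 in 1 µM 24 h replicate 5 (46.9 CPM). The same held for Rfc4 in replicate 5 of control 24 h (25.8 CPM) and of control 48 h (19.1 CPM), Rrm1 in 5 µM 24 h replicate 3 (120 CPM), Ccne1 in 5 µM 48 h replicate 3 (34.7 CPM) and Ccne2 in 5 µM 3 h replicate 5 (26.5 CPM). A lowest library stood apart for Gins3 in control 3 h replicate 3 (23.1 CPM), Rfc3 in control 48 h replicate 4 (33.2 CPM), E2f2 in 1 µM 24 h replicate 3 (16.4 CPM), E2f8 in 5 µM 3 h replicate 3 (28.5 CPM) and Chaf1a in 1 µM 24 h replicate 5 (41.4 CPM).

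The 5 µM effect differed between 48 and 3 h for Ccne1 (-0.45 on the log2 scale) and E2f2 (-0.49), by the edgeR test of the difference itself.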

How the results depend on the processing

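Over 10880 values of a gene in a comparison under an alternative, 10760 stayed on the same side of the threshold, 93 lost and 27 gained a call, and 0 changed direction as a called value. That total pools values far from and near the threshold, over fits that share most libraries. Losses recurred for calls near it. For 5 µM against control, Ccne1 at 24 h was lost in 9 of 10 fits without 1 library and E2f8 at 48 h in 6 of 10. Of 288 group levels recomputed with RLE scaling, 0 moved by over 1 SD. Where a call among the 32 genes changed, the cause was not tested.

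Without the low-count filter, 1 gene was called higher in control 48 h against 24 h, 2 lower in 5 against 1 µM at 48 h and 0 lower in 5 µM 48 h against 24 h. RLE scaling also gave 0 there. With the Y-linked covariate 1 gene was higher in control 48 h against 24 h, Ccne2 (adjusted p = 0.0434, edgeR). There E2f8 (0.0629) and Tk1 (0.119) lost their calls. The other counts with that covariate were 0 higher in control 48 h against 3 h, 2 lower in 5 against 1 µM at 24 h and 2 at 48 h. In the 5 µM effect at 48 minus 3 h 1 gene was lower with it. Without the 2 libraries of 24 h highest in haemoglobin reads they were 2 lower in 5 against 1 µM at 24 h (Cdt1 added), 0 lower in 5 µM 48 h against 24 h and 1 lower in the 5 µM effect at 24 minus 3 h (Ccne1), which DESeq2 called as well (1).

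The rule for pairing, that all 5 same-numbered pairs deviate together, was met only by 1 µM against control at 24 h. There 8 of 10 libraries correlated best with their own number. For 5 µM against control 7, 6 and 8 of 10 did so at 3, 24 and 48 h. For 5 against 1 µM 7 and 6 did at 24 and 48 h, and for 1 µM against control 5 at 48 h. Between times 0 to 4 did, so the rule may miss a partial pairing within a time, which the main fits leave out. With the replicate block, 2 genes were lower in control 48 h against 24 h, 0 higher in control 48 h against 3 h, 2 lower in 5 against 1 µM at 24 h and 0 lower in 5 µM 48 h against 24 h; control 24 h against 3 h kept 30 lower and 5 µM against control at 48 h had 5 lower (Uhrf1 added). Over all genes tested the block gave 62 calls at 3 h and 655 at 24 h for 5 µM against control, 50 and 319 for 5 against 1 µM, 2 for 1 µM at 24 h and 28 for the 5 µM effect at 48 minus 24 h, and 1618 for 5 against 1 µM at 48 h when numbered by the library codes. Every library of 1 µM against control and of 5 against 1 µM at 3 h correlated best with its own number (10 of 10), a hint from the data and not the design.

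Counts of all genes called moved by over 1.5 times as follows. For 5 µM against control, 30 calls at 3 h became 115 with DESeq2 and 79 without a filter, and 258 at 24 h became 517 with DESeq2, 434 with the Y-linked covariate and 514 without the 2 haemoglobin-rich libraries. For 1 µM, 1 call at 24 h became 2 with DESeq2 and 3 without a filter, and 0 at 48 h became 4 and 1. For 5 against 1 µM, 6 calls at 3 h became 40 with DESeq2, 25 without a filter and 10 with limma-voom, and 196 at 24 h became 339 with DESeq2, 329 with the covariate and 525 without the 2 libraries. The 5 µM effect at 24 minus 3 h went from 59 to 149 with DESeq2, 31 with the covariate and 133 without the 2 libraries, and that at 48 minus 24 h from 12 to 50 with DESeq2, 27 without a filter, 7 with limma-voom and 4 without the 2 libraries.

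Leaving out 1 library at a time gave ranges of 1 to 2 genes higher and 1 to 2 lower in control 48 h against 24 h, 0 to 1 higher in control 48 h against 3 h, 0 to 1 lower for 5 µM against control at 24 h and 3 to 4 at 48 h. They were 0 to 3 lower for 5 against 1 µM at 24 h, 2 to 4 at 48 h, 1 to 2 higher and 0 to 1 lower for 5 µM 48 h against 24 h, 0 to 1 for the 5 µM effect at 24 minus 3 h and 1 to 3 at 48 minus 3 h. Counts of all genes ranged from 15 to 45 and 109 to 498 for 5 µM against control at 3 and 24 h, 0 to 1 for 1 µM at 3 h, 1 to 9 and 95 to 553 for 5 against 1 µM at 3 and 24 h, 30 to 109 for the effect at 24 minus 3 h and 2 to 17 at 48 minus 24 h. The library labelled 1 µM 3 h replicate 5 changed no call among the 32 genes when left out. Fen1 had the lowest level, at 1.37 to 7.41 CPM, and 84.2% of its exonic bases lie under exons of other genes.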
